A study of Ovis aries with 91 samples.

Results

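ENSOARG00000019859 is a sheep gene known here by its Ensembl ID, since neither the deposited tables nor the reference used here pairs the ID with a name, a position or a function. It was selected on its measured difference between the right and the left atrial appendage, so that difference is described below and not tested. It is 1 of 13803 genes listed over the 3 expression tables of the series, of 13187 in the whole tissue table and of 13262 in the cardiomyocyte table. It is not listed among the 12141 genes of the posterior left atrium used here, so that region was not analysed here for this gene.

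RNA was sequenced from the atria of sheep, in which atrial fibrillation had been brought about by fast pacing from a device placed in the right atrium. The right and left atrial appendages were sampled as whole tissue and as isolated cardiomyocytes, which are the muscle cells that contract. In whole tissue the control sheep were S3 and S4, labelled sham, with C1, whose condition is given as control but which the table columns and the titles of its right whole tissue samples call sham. The transition sheep were D24, D27 and D30, and the chronic sheep were D15, D16 and D19. In cardiomyocytes the controls were again S3, S4 and C1, the transition sheep were D23, D24 and D27, and the chronic sheep were D16, D19 and D20. Each sheep gave a right and a left sample, so each of the 6 groups of a table held 3 sheep, and 7 of 11 sheep were in both tables. The labels give no strain or age and do not say how long transition or chronic sheep were paced. The title of the series sets both states along the progression of atrial fibrillation.

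The appendages are blind pouches of the atria. Right and left arise under different developmental programmes: in the embryo a transcription factor programme active on the left sets the left side apart, and some genes stay confined to a side in the adult atrium. Atrial fibrillation is a rapid, irregular rhythm of the atria, and sustained fast pacing is a standard way to bring it about in large animals. It remodels the electrical behaviour and the structure of atrial muscle, and both sides are affected. A gene present on 1 side only can therefore be followed for whether its side pattern holds while the muscle changes.

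Levels are the deposited log2 CPM, where CPM is a read count scaled to the size of its library. The reads behind them were recovered from the values, each of which holds a whole number of reads plus 0.5. Listed reads per sample ranged from 6241967 to 22382458 in whole tissue and from 5305524 to 12434418 in cardiomyocytes. Intervals from reads are two-sided and cover counting error only. A separate floor of 3 reads is the one-sided 95% limit for a sample with no read. The technical replicates of a sheep had been merged, so all p-values rest on the spread between sheep.

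In the right appendage ENSOARG00000019859 was abundant in every sheep. In right whole tissue the control sheep S3, S4 and C1 had log2 values of 10.42, 11.44 and 10.85, from 16367, 21502 and 15615 reads. The transition sheep D24, D27 and D30 had 11.41, 11.91 and 10.64, from 63696, 33295 and 14541 reads, and the chronic sheep D15, D16 and D19 had 10.86, 11.49 and 11.65, from 13459, 19128 and 24717 reads. The 3 states overlapped, with transition sheep D27 the highest and control sheep S3 the lowest. On the linear scale the right samples held 1374 to 3841 CPM, and the gene took up 0.143% to 0.392% of all listed reads of a sample.

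The left appendage samples held few reads of this gene. Right and left samples of a material share their technical replicate labels, and where the left reads came from was not tested. In left whole tissue the control sheep S3, S4 and C1 had log2 values of −1.49, −0.86 and −0.64, each from 4 reads. The transition sheep D24, D27 and D30 had −1.005, 0.78 and 2.36, from 4, 13 and 41 reads, and the chronic sheep D15, D16 and D19 had 0.33, 2.10 and 3.72, from 8, 34 and 113 reads. The controls lay close together and low, transition sheep D24 lay among them, and the 3 chronic sheep all lay above them. No left sample was at 0, and the linear range was 0.317 to 13.2 CPM.

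Isolated cardiomyocytes carried the same side pattern. In right cardiomyocytes the control sheep S3, S4 and C1 had log2 values of 11.10, 10.52 and 10.45, from 20410, 10869 and 10634 reads. The transition sheep D23, D24 and D27 had 9.82, 10.21 and 10.55, from 10922, 9092 and 10103 reads, and the chronic sheep D16, D19 and D20 had 9.92, 9.53 and 10.32, from 7372, 4138 and 8879 reads. Here the controls stood highest and all 3 chronic sheep lay below all 3 controls, by a gap of 0.13 between the nearest sheep.

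In left cardiomyocytes the control sheep S3, S4 and C1 had 0.12, −1.77 and −2.43, from 10, 2 and 2 reads. The transition sheep D23, D24 and D27 had 1.64, −0.49 and −1.11, from 29, 7 and 3 reads, and the chronic sheep D16, D19 and D20 had 1.09, 0.55 and −1.06, from 17, 9 and 3 reads. The states overlapped, and 4 of the 9 values rest on 3 reads or fewer, at or under the one-sided limit for a count of 0. On the linear scale the right cardiomyocyte samples held 737 to 2199 CPM and the left ones 0.148 to 3.07 CPM. The purity of the isolated cells could not be read from marker genes, because 0 of the 13803 IDs matched a named gene.

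**Figure D1:**
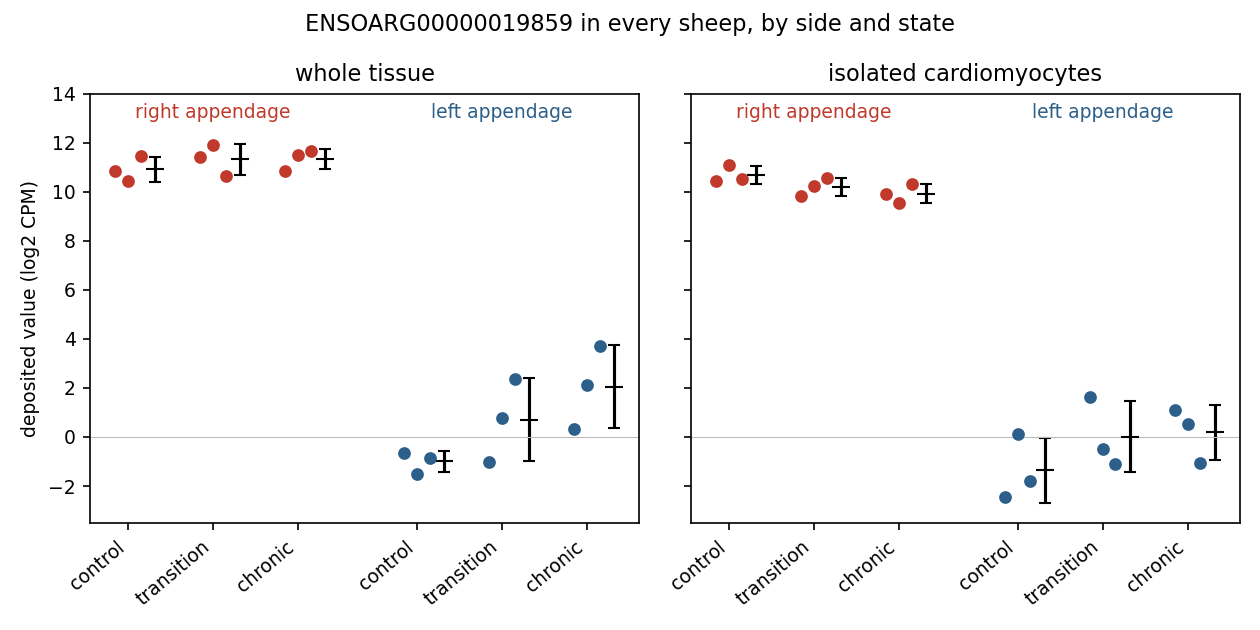
Deposited log2 CPM of ENSOARG00000019859 for every sheep (points), with the mean and SD of each group of 3 sheep (bars), by side and state, in whole tissue (left panel) and isolated cardiomyocytes (right panel). All right samples lie at 9.53 or above and all left samples at 3.72 or below, and the left whole tissue samples spread upwards in transition and chronic sheep.

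Summed over the 9 sheep, right whole tissue had 222320 reads and left whole tissue 225, and right cardiomyocytes had 92419 reads and left cardiomyocytes 82. The mean difference of right minus left within a sheep was 10.60 ± 1.69 log2 units in whole tissue and 10.65 ± 1.64 in cardiomyocytes (SD, n = 9 sheep each). The smallest was 7.93, a 244-fold difference, in whole tissue of D19, and the largest was 12.88, a 9411-fold difference, in cardiomyocytes of C1. Because these values chose the gene, the size of the side difference carries no test. The lowest right sample lay 6.70 log2 units above the highest left sample in whole tissue and 7.88 above it in cardiomyocytes. The label of the gene as nearly exclusive to the right appendage fits these levels, with the limit that every left sample had reads.

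Left CPM as a percentage of right CPM in the same sheep puts both sides of an animal on a scale. In whole tissue the chronic sheep D15, D16 and D19 had 0.0639%, 0.147% and 0.409%, the last with a 95% Poisson interval of 0.337% to 0.492%. The transition sheep D24, D27 and D30 had 0.0163%, 0.0431% and 0.317%, and the control sheep S3, S4 and C1 had 0.0230%, 0.0177% and 0.0308%. D19, D30 and D16 had the highest values, and the interval of D16, 0.102% to 0.205%, overlapped that of D15, 0.0276% to 0.126%.

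In cardiomyocytes the chronic sheep D16, D19 and D20 had 0.214%, 0.188% and 0.0322%. The transition sheep D23, D24 and D27 had 0.340%, 0.0562% and 0.0265%, and the control sheep S3, S4 and C1 had 0.0470%, 0.0159% and 0.0106%. D16 and D19 were high in both materials, and D24 and D27 were at 0.0562% or below in both. D30, D15, D23 and D20 were sampled in a single material each.

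**Figure D2:**
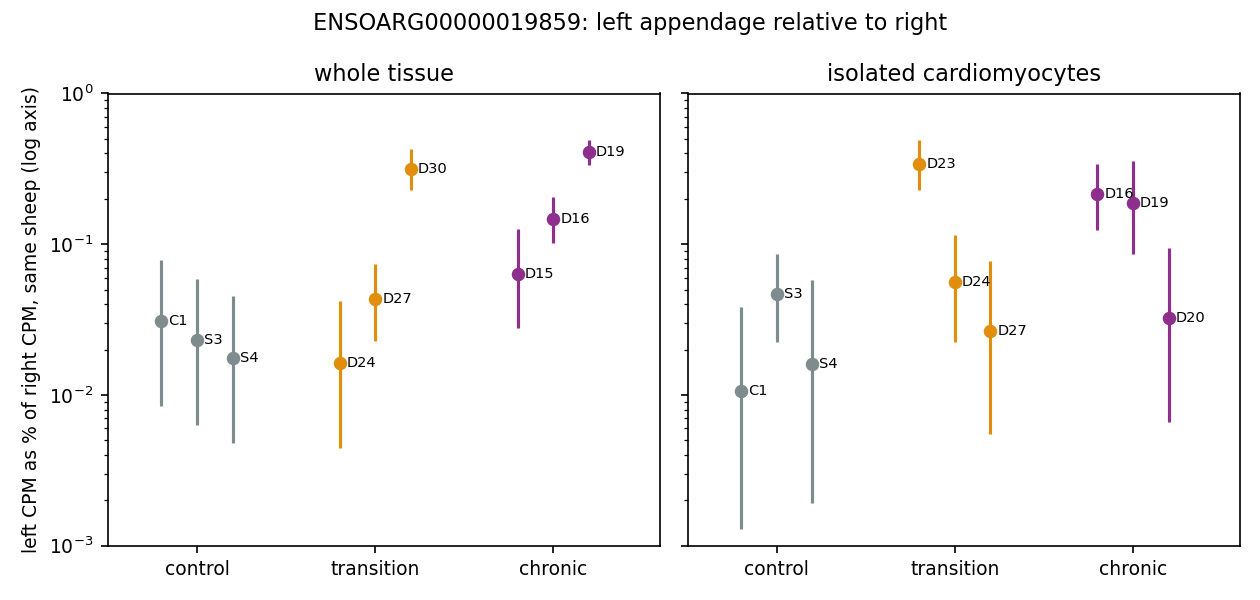
Left CPM of ENSOARG00000019859 as a percentage of right CPM of the same sheep, on a log axis, with 95% Poisson intervals from the reads (bars), by state, in whole tissue and cardiomyocytes. The values run from 0.0106% in cardiomyocytes of control sheep C1 to 0.409% in whole tissue of chronic sheep D19.

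Set against the other genes, the side difference of this gene was the largest. Over the 12667 genes listed in both appendage tables, the next largest mean right minus left difference was 5.25 in whole tissue and 3.29 in cardiomyocytes, and the medians were −0.01 and −0.02. The most negative values, for genes higher on the left, were −6.76 and −5.80. Only 5 genes had every right sample above every left sample in both tables, and ENSOARG00000019859 was the only one of them with a gap over 1 log2 unit in both tables.

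The genes nearest to it by this gap, the lower of the values of both tables, were ENSOARG00000012634 and ENSOARG00000005410. ENSOARG00000012634 had gaps of 0.83 in whole tissue and 1.09 in cardiomyocytes, with mean right minus left differences of 3.23 and 3.29, and 0 to 5 reads in left samples. ENSOARG00000005410 had gaps of 0.89 and 0.41 and mean differences of 1.94 and 2.27. In left whole tissue ENSOARG00000005410 averaged 2.13 ± 0.70 in control, 2.82 ± 0.30 in transition and 2.45 ± 0.24 in chronic sheep (log2 CPM, SD, n = 3 each), so its left values in chronic sheep lay inside the control range.

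In the mirror image the largest gaps were smaller than those of ENSOARG00000019859. They were larger than those of ENSOARG00000012634 and ENSOARG00000005410. Among genes with every left sample above every right sample, ENSOARG00000003437 had the largest gap, 3.99 in whole tissue and 3.83 in cardiomyocytes, with mean right minus left differences of −6.76 and −5.80. Its right samples had 0 to 9 reads. ENSOARG00000007850 followed with gaps of 1.46 and 1.74. Neither ID is paired with a name here.

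**Figure D3:**
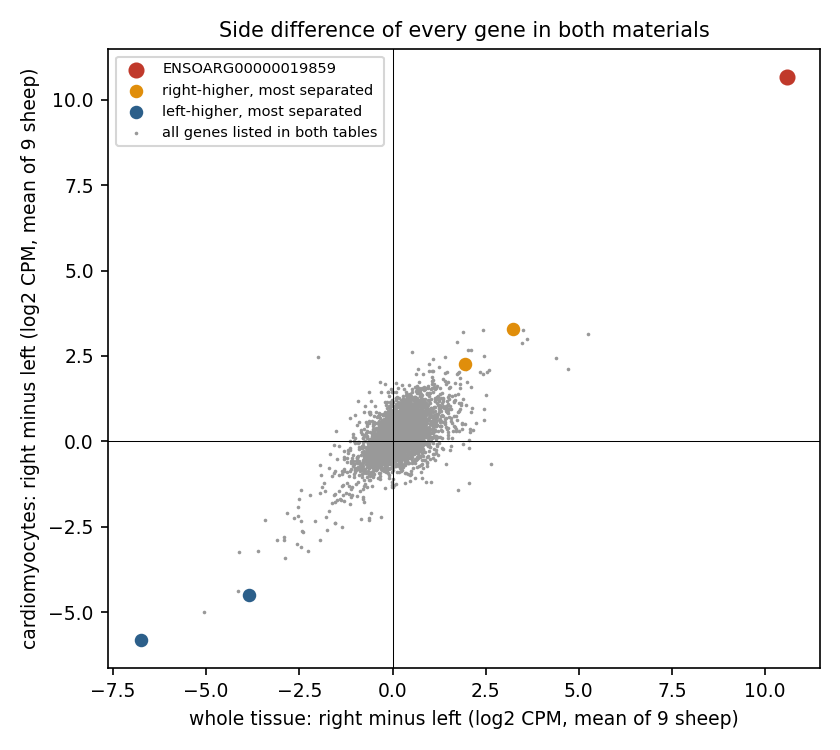
Mean right minus left difference of every gene listed in both tables (log2 CPM, mean of 9 sheep), whole tissue on the horizontal axis and cardiomyocytes on the vertical axis. ENSOARG00000019859 lies at 10.60 and 10.65, beyond the next largest values of 5.25 and 3.29, and the left-higher genes reach −6.76 and −5.80.

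Whether the level changed with the state of the sheep was tested within each side, which the choice of the gene did not use. Each comparison was made with limma in a fit of all 18 samples of a table, with p-values adjusted over all genes tested, 12333 in whole tissue and 12279 in cardiomyocytes. The gene passed the filter on low values, a mean of at least 0 log2 CPM over a table, in both materials. In cardiomyocytes it did so only through its right samples. Its left mean was 0.59 ± 1.80 in whole tissue and −0.38 ± 1.35 in cardiomyocytes (SD, n = 9).

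In left whole tissue the RNA averaged higher in chronic than in control sheep, with a call that most alternative settings did not keep. It averaged 2.05 ± 1.70 in chronic and −0.996 ± 0.44 in control sheep (log2 CPM, SD, n = 3 each), a difference of 3.05 ± 0.76 (SE, 95% interval 1.44 to 4.66), or 8.28-fold, with an adjusted p of 0.0229. On the linear scale that is 6.19 ± 6.22 CPM in chronic and 0.459 ± 0.130 CPM in control sheep, so the level in chronic sheep stayed far under the 2651 ± 709 CPM of their right appendages. The call was made for 7.49% of all genes in this comparison. All 3 chronic sheep lay above all 3 controls, by 0.97 at the nearest, which was so for 14.4% of genes tested, and the two-sided exact permutation test gave 0.1, the smallest p that 3 sheep against 3 allow. In a bulk sample, more cells that make an RNA and more RNA in each cannot be told apart. Whether all left reads came from left tissue was not tested either.

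That call was not firm. It was kept without D15, at 3.91 with an adjusted p of 0.00703, and lost without any other sheep of the 2 groups. The adjusted p was 0.125 without D19, where the difference was 2.21. It was 0.0635 without D16, 0.0631 without C1, 0.0953 without S3 and 0.0670 without S4, with differences of 3.02, 3.23, 2.80 and 3.12. Fitted on the left samples alone the difference was 3.05 with an adjusted p of 0.0689. With voom weights on the recovered reads it was 3.15 with an adjusted p of 0.0867. Adding 1 CPM before the log gave 1.90 with an adjusted p of 0.0509, and adding 10 CPM gave 0.56 with an adjusted p of 0.323.

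Transition sheep lay between the other states on the left. Left whole tissue averaged 0.71 ± 1.68 in transition and −0.996 ± 0.44 in control sheep, a difference of 1.71 ± 0.76 (SE, 95% interval 0.10 to 3.32) with an adjusted p of 0.303. This was not past the threshold, which 1.49% of all genes passed. The sheep overlapped, with D24 in the control range and D30 above D15 and D16 of the chronic group.

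In right whole tissue no difference between states was detected. The group means were 10.90 ± 0.51 in control, 11.32 ± 0.64 in transition and 11.33 ± 0.42 in chronic sheep (log2 CPM, SD, n = 3 each), and the sheep of every pair of states overlapped. Transition minus control was 0.42 ± 0.76 (95% interval −1.20 to 2.03, adjusted p = 0.831), in a comparison that called 0.624% of genes. Chronic minus control was 0.43 ± 0.76 (95% interval −1.18 to 2.04, adjusted p = 0.844), against 1.26% of genes called. As folds, the interval of transition over control runs from 0.436 to 4.08 and that of chronic over control from 0.441 to 4.12. The error behind these intervals is shared with the left samples, which rest on few reads. Fitted on right whole tissue alone, transition minus control was 0.42 ± 0.36 (SE, adjusted p = 0.661). Chronic minus control was then 0.43 ± 0.36 (SE, 95% interval −0.37 to 1.23, adjusted p = 0.662).

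Chronic minus transition was 0.01 ± 0.76 (adjusted p = 0.9996) in right whole tissue. In that comparison limma called 0 of the genes, 0%, and 747 genes had an unadjusted p below 0.05, while voom called 0 genes. The exact permutation test gave a p of 0.2 for chronic against control and 0.5 for transition against control.

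In right cardiomyocytes the means ran the other way, without passing the test. They were 10.69 ± 0.36 in control, 10.19 ± 0.36 in transition and 9.92 ± 0.40 in chronic sheep (log2 CPM, SD, n = 3 each), or 1687 ± 444, 1195 ± 296 and 995 ± 271 CPM. Chronic minus control was −0.77 ± 0.77 (SE, 95% interval −2.40 to 0.87, adjusted p = 0.618), where 5.16% of genes were called. The 3 chronic sheep lay below the 3 controls, as in 14.6% of genes tested, and the exact permutation test gave 0.1, the smallest p possible.

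The error of that fit is shared between the right samples and the left samples, which rest on few reads. Fitted on right cardiomyocytes alone, chronic minus control was −0.77 ± 0.25 with an adjusted p of 0.148. Transition minus control was −0.50 ± 0.77 (adjusted p = 0.833), with 0.652% of genes called, and chronic minus transition was −0.27 ± 0.77 (adjusted p = 0.935), with 0.00814% called. Neighbouring states in the order control, transition and chronic thus overlapped, by 0.10 between control and transition and by 0.50 between transition and chronic.

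In left cardiomyocytes no difference between states passed the test either. The means were −1.36 ± 1.32 in control, 0.02 ± 1.44 in transition and 0.19 ± 1.12 in chronic sheep (log2 CPM, SD, n = 3 each). Chronic minus control was 1.56 ± 0.77 (95% interval −0.08 to 3.19, adjusted p = 0.234), in a comparison that called 7.64% of genes, and 1.56 with an adjusted p of 0.236 when no gene was filtered out. Transition minus control was 1.38 ± 0.77 (adjusted p = 0.327), in a comparison that called 3.4% of genes. These left samples rest on 2 to 29 reads each.

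**Figure D4:**
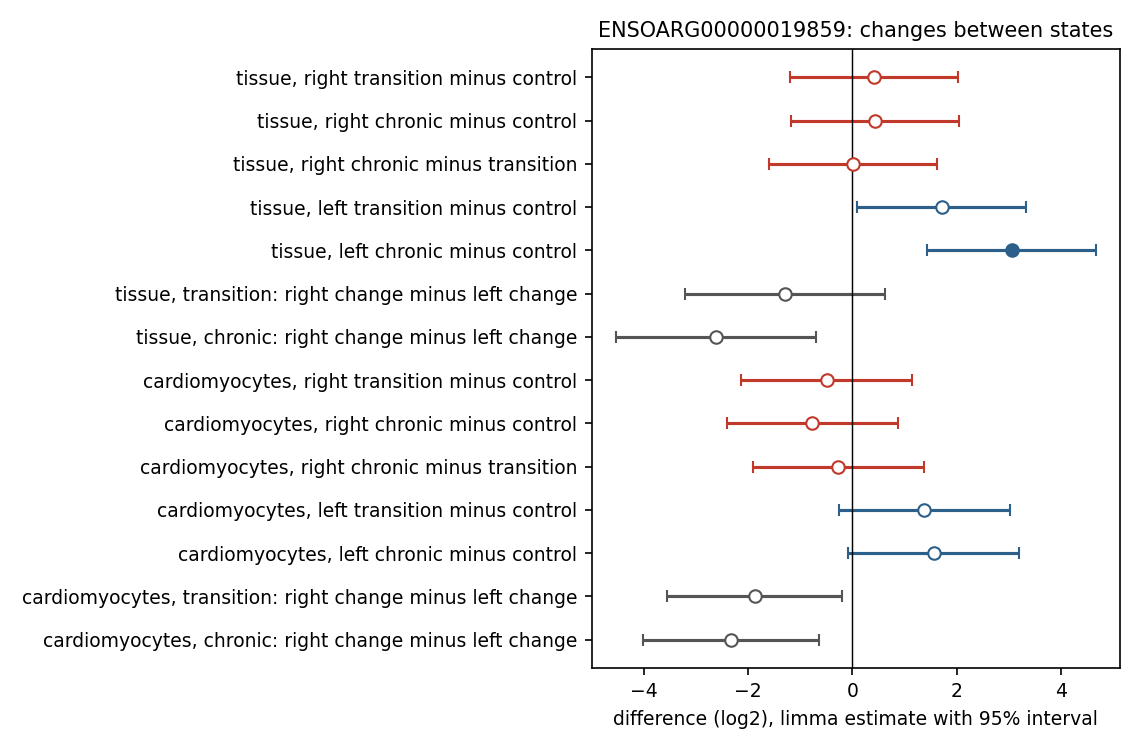
Differences of ENSOARG00000019859 between states (log2 scale) estimated by limma, with 95% intervals, on the right (red), on the left (blue) and as the right change minus the left change (grey), in tissue and cardiomyocytes. The filled point, left whole tissue in chronic minus control sheep at 3.05, is the only estimate past an adjusted p of 0.05.

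The mean gap between the sides was smaller in chronic than in control sheep in both materials, but the difference did not pass the test. The gene was chosen on its gap between the sides. The contrasts of gaps between states are therefore a description, and their p-values are no support for a change. In whole tissue right minus left averaged 9.28 ± 1.30 in chronic and 11.90 ± 0.40 in control sheep (log2, SD, n = 3 each). The change on the right minus the change on the left was −2.62 ± 0.91 (SE, 95% interval −4.54 to −0.70, adjusted p = 0.638). In this contrast limma called 0 genes, 0%, and 815 genes had an unadjusted p below 0.05, while voom called 0 genes. The gaps of the 3 chronic sheep all lay below those of the 3 controls, which was so for 5.77% of genes tested, with an exact permutation p of 0.1, the smallest possible.

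In cardiomyocytes right minus left averaged 9.73 ± 1.43 in chronic and 12.05 ± 0.97 in control sheep. The change on the right minus the change on the left was −2.32 ± 0.80 (SE, 95% interval −4.01 to −0.64, adjusted p = 0.199), with 0.358% of genes called. The gaps of chronic and control sheep overlapped, and the exact permutation test gave 0.2. The size of both contrasts depended on the pseudocount: they were −1.48 in whole tissue and −1.38 in cardiomyocytes with 1 CPM added, and −0.14 and −0.87 with 10 CPM added.

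For transition sheep the gap averaged 10.61 ± 2.11 in whole tissue, against 11.90 ± 0.40 in controls, and the contrast was −1.29 ± 0.91 (adjusted p = 0.811) with 0.0243% of genes called. In cardiomyocytes it averaged 10.18 ± 1.80 in transition sheep, against 12.05 ± 0.97 in controls, and the contrast was −1.87 ± 0.80 (adjusted p = 0.764). Limma called 0 genes there, 0%, and 781 genes had an unadjusted p below 0.05, while voom called 0 genes. All 4 contrasts rest on the same 3 control sheep, S3, S4 and C1, and the paced sheep D16, D19, D24 and D27 are in both tables, so they are not independent of each other.

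On the left the SD between sheep of a state was larger than that of the median gene tested. The filter on low values used the mean over both sides, which the right samples of this gene raised. Its left values, from few reads, are therefore not matched in level to the genes set beside them. The SD within states was 1.40 log2 units in left whole tissue and 1.30 in left cardiomyocytes, where the median gene had 0.265 and 0.262, and 0.981% and 1.03% of genes had a larger one. On the right it was 0.529 in whole tissue, against a median of 0.305, and 0.374 in cardiomyocytes, against 0.285, and 16.1% and 33.9% of genes had a larger one. Reads per left sample were 2 to 113, so counting error adds to the left SD, and its share was not tested.

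The 7 sheep sampled in both materials allow a pairing of cardiomyocytes with whole tissue. The tables were normalised separately, so these differences are values without a test. Whole tissue and cardiomyocyte samples also carry different technical replicate labels, which cannot be told apart from the material. On the right, cardiomyocytes minus whole tissue was −1.57 in D16 and −2.12 in D19, the chronic sheep, −1.20 in D24 and −1.36 in D27, the transition sheep, and 0.68 in S3, −0.92 in S4 and −0.40 in C1, the controls. Cardiomyocytes had the lower value in 6 of 7 sheep, with a mean difference of −0.99 ± 0.91 (SD, n = 7).

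The 4 paced sheep had differences of −2.12 to −1.20 and the 3 controls −0.92 to 0.68, with no overlap. The same held, in the same direction, for 9.61% of the 11796 genes that passed the filter in both tables. In S3 cardiomyocytes had the higher value on both sides. On the left the difference averaged −0.95 ± 1.59 (SD, n = 7) and was below 0 in 5 of 7 sheep, from few reads.

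**Figure D5:**
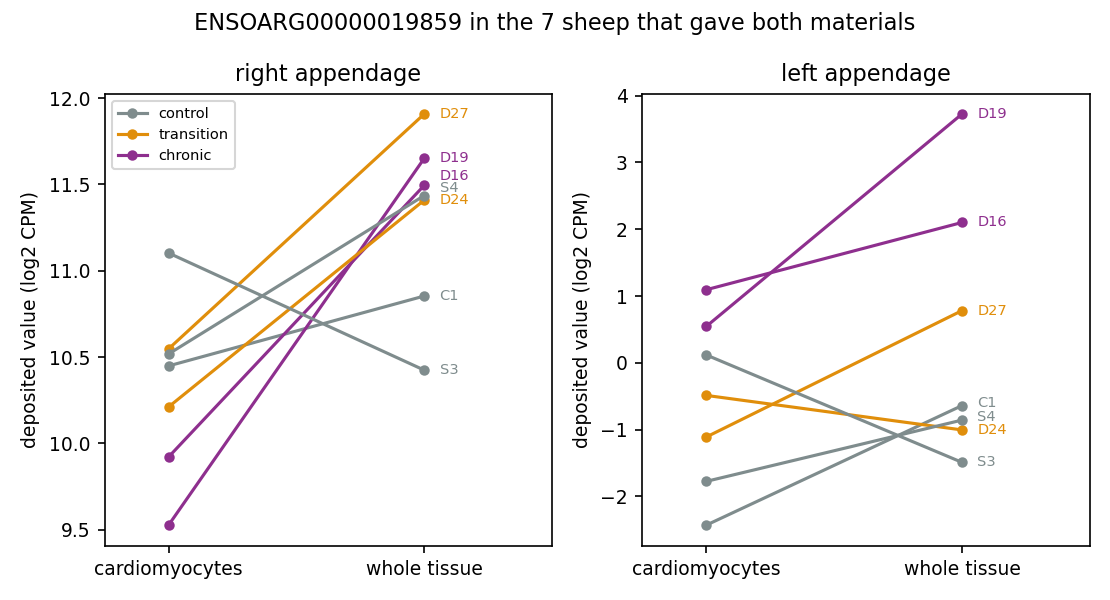
Deposited log2 CPM of ENSOARG00000019859 in cardiomyocytes and whole tissue of the 7 sheep that gave both (lines join a sheep), on the right (left panel) and on the left (right panel), coloured by state. On the right the lines of the 4 paced sheep climb towards whole tissue by 1.20 to 2.12, and that of control sheep S3 descends by 0.68.

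Finally, the genes whose values varied most like it among right samples were sought in both tables by the lower of their Pearson correlations over the 9 right samples. ENSOARG00000018799 had r of 0.939 in whole tissue and 0.936 in cardiomyocytes, with Spearman's rho of 0.917 and 0.933. Without the 2 samples farthest from the median, r was 0.934 and 0.800. ENSOARG00000015934 had r of 0.945 and 0.911, rho of 0.917 and 0.867, and r of 0.950 and 0.788 without such samples.

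Neither gene shared the side pattern: the mean right minus left difference was −0.11 in whole tissue and −0.03 in cardiomyocytes for ENSOARG00000018799, and −0.03 and −0.25 for ENSOARG00000015934. Both were picked as the highest of 12667 genes, 247 of which had r over 0.7 in both tables. The samples share their states and, in part, their sheep, so these correlations are a description and carry no p.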

How the data were processed

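RNA-seq libraries came from whole tissue and isolated cardiomyocytes of both atrial appendages. Per the submitters' processing notes, bcl2fastq, cutadapt, RSEM and limma were used, without versions or roles. The sources used here do not give the aligner, genome build, annotation or use of strand, and reads shared with a near-identical or overlapping gene cannot be told apart. The authors deposited log2 values, 1 column per sheep and region, with technical replicates merged. All 237366 whole tissue and 238716 cardiomyocyte values, within 0.05 reads, equal the log2 of whole reads plus 0.5 over a scaled library size, as CPM. The scaling factors lay between 0.828 and 1.14. All columns were tied to samples.

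The deposited log2 values were tested in limma (version 3.58.1, R 4.3.3), allowing the prior variance to follow the mean level, and no pseudocount was added. Genes with a mean under 0 over a table were left out. The model held 6 group means, with the sheep as a random block, since the labels name the same sheep for right and left samples. The consensus correlation was 0.294 in whole tissue and 0.470 in cardiomyocytes. Adjusted p-values (Benjamini-Hochberg) were called at 0.05. Exact permutation tests were two-sided. Reads served for voom, for 95% Poisson intervals and for a scaling by library totals; no count model was run on log2 values. The scripts were tested on simulated data.

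Further genes were named by a rule: the pairs most separated between sides, in each direction, and the pair most correlated within the right appendage, by the lower value of both tables. The gene, the lists and the tests were chosen with earlier results of these data known. Cell type markers had been listed as symbols, and as 0 of 13803 IDs matched a symbol they were not used.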

Additional observations from a re-analysis of the deposited data

How the results depend on the processing

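Of 216 recomputed values, 199 counted as the same. Tested differences counted so when they kept their direction and side of the threshold. Side differences, which have no test, did so when they kept their direction and moved by less than their SD between sheep. The difference of chronic minus control sheep in left whole tissue lost its call in 9 of 14. It was 3.05 with the appendage fitted alone, 1.90 and 0.56 with pseudocounts of 1 and 10 CPM, and 3.15 with voom weights. The call was also lost without D19, D16, C1, S3 or S4, with differences of 2.21 to 3.23 (adjusted p 0.0631 to 0.125). Without D15 it was kept, at 3.91 (adjusted p = 0.00703). The cause was not tested. Without the replicate block this difference was 3.05 (adjusted p = 0.0209), and the block changed no call. Right whole tissue, chronic minus transition, turned to −0.021 with library totals and −0.017 with sample quality weights, and ran from −0.32 to 0.31 without single sheep. The whole tissue contrast of transition changes turned to 0.19 with a pseudocount of 10, which also brought the side differences down to 7.54 and 6.82. Library totals moved the median gene by −0.11 to 0.18.

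Numbers of genes called moved more. With sample quality weights they were 685, 769, 125, 528 and 71 against 77, 155, 0, 184 and 3 (whole tissue: right transition, right chronic, chronic minus transition, left transition, transition contrast). In cardiomyocytes they were 409, 11, 1214, 1785, 2 and 168 against 80, 1, 418, 938, 0 and 44 (right transition, chronic minus transition, left transition, left chronic, both contrasts). The numbers for chronic minus control were also 1376 against 924 in left whole tissue and 815 against 633 in right cardiomyocytes. With the right side fitted alone they were 14 and 36 in whole tissue and 9 and 159 in cardiomyocytes, for transition and chronic against control (77, 155, 80 and 633 jointly). Without the block, the chronic contrast in cardiomyocytes called 1 gene against 44. Without single sheep the numbers ran from 19 to 48, 38 to 429, 33 to 146, 440 to 929 and 0 to 16 in whole tissue (77, 155, 184, 924 and 3 with all sheep: right transition, right chronic, left transition, left chronic, transition contrast). In cardiomyocytes they ran from 9 to 309, 99 to 479, 1 to 90, 90 to 1306, 320 to 627 and 1 to 69 (80, 633, 1, 418, 938 and 44: right transition, right chronic, chronic minus transition, left transition, left chronic, chronic contrast). Left values of 2 to 113 reads limit every statement on that side. The posterior left atrium comparison was not run.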
